A study of Homo sapiens with 6 samples.

Results

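Laminin-332 and the hemidesmosome were followed through 9 genes: LAMA3, LAMB3, LAMC1, LAMB1 and LAMA5, which encode laminin chains, ITGA6, ITGB4 and ITGA3, which encode laminin-binding integrin chains, and DST, which encodes a plaque protein. A gene was taken up where the array annotation gave a probe set that symbol alone, and 8 of the 9 qualified, out of 19775 genes on the array. LAMA3 was not analysed here. The 8 genes had 24 probe sets, and the one with the highest mean over all 6 arrays stood for the gene.

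The cells were CaSki, an established line from a human squamous cell carcinoma of the cervix. They were kept in serum-containing RPMI1640 medium with antibiotics, and 3 arrays came from cells given recombinant TGF-β1 at 2 ng/mL and 3 from cells in medium without it. The study asked how TGF-β1 alters expression, including that of genes in its own pathway. Both groups are 1 cell line without other cell types, the labels do not say whether arrays of a group came from separate cultures, and no source used here gives the length of treatment, so p-values measure the spread between these arrays, which may be technical. A lower signal in bulk RNA cannot tell fewer expressing cells from less RNA per cell.

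Laminins are trimers of an α, a β and a γ chain that are laid down in basement membranes. Laminin-332 is the form typical of squamous epithelium and contains the products of LAMA3 and LAMB3, while LAMB1, LAMC1 and LAMA5 supply chains of the more widespread laminins. Basal keratinocytes hold on to laminin-332 through the hemidesmosome, in which the integrin α6β4 (ITGA6 and ITGB4) spans the membrane and plectin and the epithelial product of DST tie it to keratin filaments, and through the integrin that pairs the ITGA3 product with the β1 chain.

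The values are log2 expression estimates made with RMA, so a difference of 1 is a doubling of signal. Array medians lay between 4.15 and 4.18, and arrays correlated with r between 0.994 and 0.996 within groups and between 0.992 and 0.993 across groups. RNA quality was followed by the signal at the 3' end of GAPDH and ACTB minus that at the 5' end (log2, from the control probe sets). It was highest on the arrays numbered 1, at 1.15 in the TGF-β1 group and 1.19 in the untreated group, against 0.690 to 0.863 on the other 4. All 6 measured epithelial markers (KRT5, KRT14, KRT19, EPCAM, CDH1 and DSP) lay above the array median on every array, with a summed signal of 13.6 to 13.8 (log2) in TGF-β1-treated and 13.7 to 13.8 in untreated cells. Of the 6, KRT14 rose, EPCAM fell 1.62-fold (limma adjusted p = 9.5e-04) and the other 4 did not pass. The 8 fibroblast markers summed to 9.52 to 9.69 in treated and 8.25 to 8.50 in untreated cells. COL1A1 differed by 1.58 among them and the other 7 did not pass. COL1A1, DCN and THY1 lay above the array median on every array, PDGFRB on 5 and COL1A2 on 1, and LUM, COL3A1 and PDGFRA on none. Summed endothelial markers (5) ran from 6.87 to 7.08 in treated and 6.91 to 6.96 in untreated cells, and summed immune markers (4) from 6.50 to 6.80 in treated and 6.41 to 6.48 in untreated cells. TEK, VWF, PECAM1, CSF1R and CD3E lay above the array median on all arrays, and PTPRC, CD163, KDR and CDH5 below it. Among these 9, KDR rose (limma adjusted p = 0.0343) and CDH5 fell (limma adjusted p = 0.0299). The part of these lists in the results below was not tested. As a check of the treatment, SMAD7, the inhibitory SMAD induced by the pathway, differed by 1.67 and PMEPA1, a feedback inhibitor, by 1.98.

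The LAMB3 and ITGA6 starts are shown because these genes had the widest difference upward and downward among the 8, and the LAMB1 start because it is the β chain with which LAMB3 is compared. The windows run from 250 bases before to 50 after an annotated start, 5′ to 3′ on the strand of the gene, and come from RefSeq on GRCh38.p14. Capitals mark matches to 3 motifs on either strand: TGANTCA, bound by AP-1, CAGAC, the SMAD box, and CACCTG, the E-box bound by SNAI1 and SNAI2. LAMB3 has 3 annotated starts, and the third window, which overlaps the first one shown, holds no match.
LAMB3, chr1:209652376-209652675, minus strand: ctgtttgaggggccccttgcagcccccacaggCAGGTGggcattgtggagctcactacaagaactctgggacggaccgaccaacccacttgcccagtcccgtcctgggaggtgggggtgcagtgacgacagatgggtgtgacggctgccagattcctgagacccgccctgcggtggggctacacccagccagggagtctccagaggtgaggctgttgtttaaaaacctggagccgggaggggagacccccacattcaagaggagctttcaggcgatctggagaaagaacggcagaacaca
LAMB3, chr1:209651325-209651624, minus strand: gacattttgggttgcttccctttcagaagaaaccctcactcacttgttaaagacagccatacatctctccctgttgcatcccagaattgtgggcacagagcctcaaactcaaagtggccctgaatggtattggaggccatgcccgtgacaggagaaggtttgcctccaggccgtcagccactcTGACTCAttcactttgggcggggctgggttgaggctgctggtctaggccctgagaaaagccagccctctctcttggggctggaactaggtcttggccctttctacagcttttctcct
LAMB1, chr7:108003112-108003411, minus strand: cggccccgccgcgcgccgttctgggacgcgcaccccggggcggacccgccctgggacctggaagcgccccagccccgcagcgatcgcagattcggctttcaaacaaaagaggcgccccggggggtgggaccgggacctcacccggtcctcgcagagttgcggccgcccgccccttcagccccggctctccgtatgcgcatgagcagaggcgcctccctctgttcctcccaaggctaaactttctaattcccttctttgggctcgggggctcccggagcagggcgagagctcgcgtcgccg
ITGA6, chr2:172427086-172427385, plus strand: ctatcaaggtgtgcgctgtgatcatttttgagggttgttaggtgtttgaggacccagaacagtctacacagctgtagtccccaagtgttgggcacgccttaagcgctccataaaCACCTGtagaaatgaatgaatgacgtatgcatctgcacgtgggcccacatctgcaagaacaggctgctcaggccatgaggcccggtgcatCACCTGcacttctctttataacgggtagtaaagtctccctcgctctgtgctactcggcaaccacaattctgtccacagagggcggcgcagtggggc

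The downstream LAMB3 window held 1 AP-1 match, TGACTCA, whose first base lies at -67 from the start, and the upstream one held 1 E-box match at -218. The ITGA6 window shown held 2 E-box matches, at -136 and -46. The second of the 2 ITGA6 windows, not shown, held no match to any of the 3 motifs, and the LAMB1 window held no match to any of the 3. Of all 35116 promoter windows in the table, 7.71% held the AP-1 letters, 45.3% the SMAD box and 20.6% the E-box. The members had 12 windows over 7 genes, including LAMA3. Among the windows not shown, AP-1 matches also lay in DST (at 25) and LAMA3 (at -125 and -69). SMAD boxes lay in LAMC1, LAMA5, DST and LAMA3, and E-boxes in LAMA3 and LAMA5. A match is a run of letters and not a measured site.

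LAMB3, the β chain found in laminin-332, was the 1 member that passed the test, and it rose 2.09-fold with TGF-β1. Its signal was 9.68, 9.66 and 9.73 in TGF-β1-treated cells, against 8.72, 8.56 and 8.62 in untreated cells (log2). The groups lay far apart, with every treated array above every untreated one. The means were 9.69 ± 0.036 in treated and 8.63 ± 0.079 in untreated cells (SD, n = 3 each), which differ by 1.06 (95% interval 0.89 to 1.23, limma adjusted p = 1.4e-04). Of all 19775 genes, 8.5% passed in either direction and 4.03% rose, and 0.491% had a difference larger in size than that of LAMB3. With any single array left out the LAMB3 difference was 1.03 to 1.10 and its adjusted p at most 0.00177. LAMB3 had 1 probe set with a single symbol, so no other probe set could be set beside it.

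**Figure D1:**
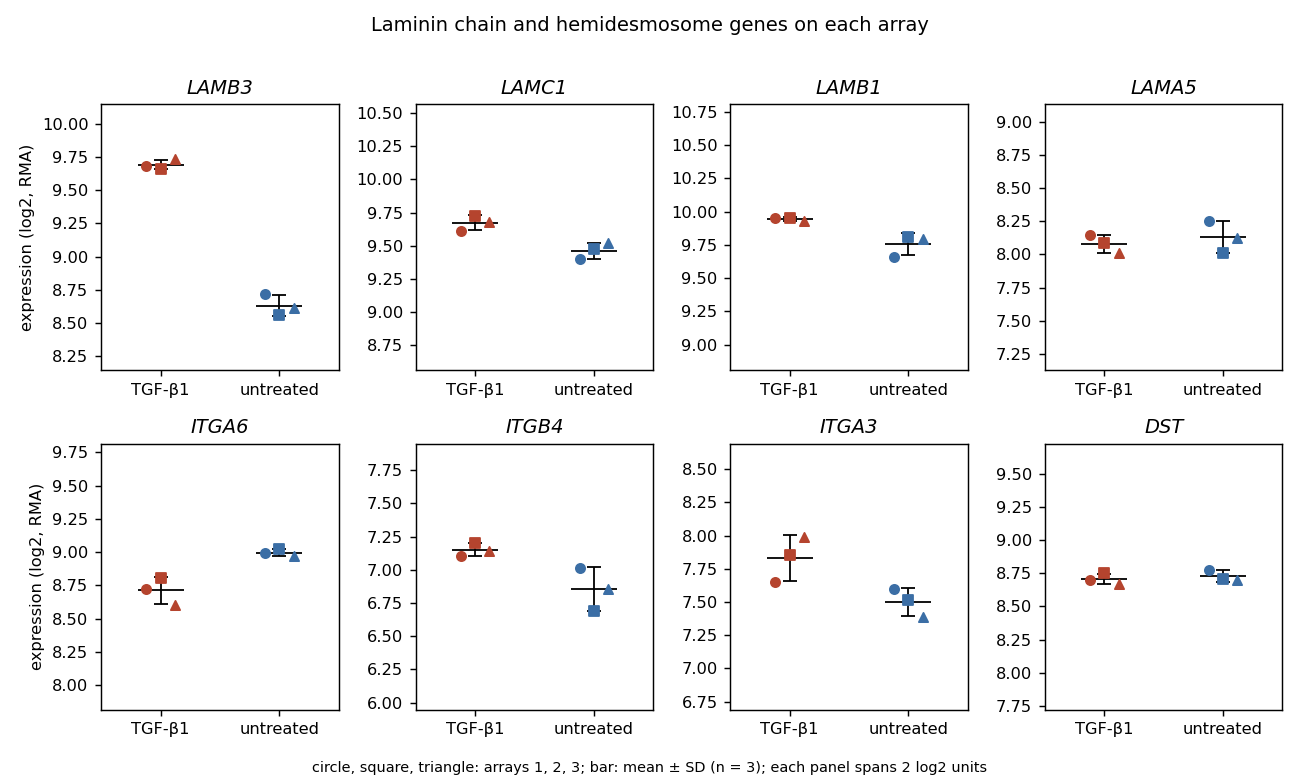
Expression (log2, RMA) of the 8 members on each of the 6 arrays, TGF-β1 left and untreated right in each panel, with the mean ± SD (n = 3) as bars and the array number as the marker shape. LAMB3 shows a gap of about 1 log2 unit between the groups, while LAMA5 and DST overlap.

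The chains of the other laminins differed by little. LAMC1, the γ chain of most laminins, stood at 9.61, 9.73 and 9.68 in treated cells, against 9.40, 9.47 and 9.52 in untreated cells. LAMB1, the β chain of the widespread laminins, stood at 9.95, 9.95 and 9.93 in treated cells, against 9.66, 9.81 and 9.80 in untreated cells. For both genes the treated arrays all lay above the untreated ones, as for 12.9% of all genes, and by less than 0.4 on the log2 scale. The differences were 0.21 for LAMC1 (95% interval 0.04 to 0.38, adjusted p = 0.126, limma) and 0.19 for LAMB1 (0.02 to 0.36, adjusted p = 0.161, limma), and neither passed. These intervals are for single genes and not adjusted for the number of genes, which is why they can leave out 0 where the adjusted p does not pass. The second LAMC1 probe set differed by 0.17 and the second LAMB1 probe set by 0.17, so both pairs of probe sets moved by like amounts.

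LAMA5, the α chain that pairs with LAMB1 and LAMC1 in many epithelial basement membranes, stood at 8.14, 8.09 and 8.01 in treated cells, against 8.25, 8.01 and 8.12 in untreated cells. The groups overlapped, and the difference was -0.05 (95% interval -0.24 to 0.14, limma adjusted p = 0.772). The sign of this difference turned without the untreated array numbered 1.

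Within each array, LAMB3 was set against LAMB1 to compare the 2 β chains. The LAMB3 minus LAMB1 signal was -0.27, -0.29 and -0.20 in treated cells, against -0.94, -1.25 and -1.18 in untreated cells (log2). Only the shift between the groups can be read, since probe sets differ in how brightly they report. It was 0.87, and LAMB3 minus LAMC1 shifted by 0.85. The treated arrays all lay above the untreated ones in both. The gap in LAMB3 exceeded the range of LAMB1 and of LAMC1, which made this certain, so no test is given. The LAMB3 difference given above is larger than either shift, and the smaller upward differences of LAMB1 and LAMC1 reduced it.

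The 2 chains of the hemidesmosome integrin differed in opposite directions, and neither passed the test. ITGA6, the α6 chain, stood at 8.72, 8.81 and 8.60 in treated cells, against 8.99, 9.03 and 8.97 in untreated cells. All treated arrays lay below all untreated ones, which was so for 16.3% of all genes. The difference was -0.28 (95% interval -0.46 to -0.11, limma adjusted p = 0.0613). The second ITGA6 probe set, 215177_s_at, stood at 7.73, 7.90 and 8.07 in treated cells, against 8.15, 8.25 and 8.30 in untreated cells, and differed by -0.33 (adjusted p = 0.149 over all probe sets, limma). Both ITGA6 probe sets were thus lower without overlap.

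The call for ITGA6 depended on the setting. It passed with a filter on dim probe sets (adjusted p = 0.0288), with the mean of its probe sets (adjusted p = 0.0271) and with a trended robust variance (adjusted p = 0.00858), all from limma. Over the 16 alternative settings the difference lay between -0.33 and -0.23.

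ITGB4, the β4 chain with the long tail that binds plectin, stood at 7.11, 7.20 and 7.14 in treated cells, against 7.02, 6.69 and 6.86 in untreated cells. The treated arrays all lay above the untreated ones, as for 12.9% of all genes, although untreated array 1 came close to them. The difference was 0.30 (95% interval 0.08 to 0.51, limma adjusted p = 0.1002). Its other 4 probe sets were dimmer, with means between 3.17 and 4.82. Of these, 204989_s_at, at 4.68, 4.69 and 4.57 in treated cells and 4.24, 4.13 and 4.36 in untreated cells, differed by 0.41 (adjusted p = 0.0515 over all probe sets, limma). The remaining 3 differed by -0.16, -0.049 and -0.043 with overlapping groups, so the ITGB4 probe sets disagreed in sign. The 95% interval of each of these 3 included 0. Those at -0.16 and -0.043 lay below the array median on every array. The one at -0.049 lay above it on all 6 arrays, and 204989_s_at, close to it, on 5.

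On each array, the ITGB4 minus ITGA6 signal was -1.62, -1.60 and -1.46 in treated cells, against -1.97, -2.33 and -2.11 in untreated cells (log2). The shift was 0.58. The groups did not overlap, as the opposite differences of the 2 genes made certain, so no test is given. The pair was chosen after the 2 values were known.

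ITGA3, the α chain of the other main laminin-332 receptor, stood at 7.65, 7.85 and 7.99 in treated cells, against 7.60, 7.51 and 7.39 in untreated cells. The groups did not overlap, with the treated arrays higher, as for 12.9% of all genes. Even so, the lowest treated and the highest untreated array, both numbered 1, nearly met. The difference was 0.33 (95% interval 0.09 to 0.57, limma adjusted p = 0.0970), and without the treated array numbered 1 it was 0.42 and passed (adjusted p = 0.0472). It also passed with array weights (adjusted p = 0.0461) and with a trended robust variance (adjusted p = 0.0284). ITGA3 minus ITGA6 shifted by 0.61 within arrays, a pair also chosen with both values known and given without a test.

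DST makes several long linker proteins from 1 gene, of which the epithelial one, BPAG1e or BP230, is the hemidesmosome plaque component. The brightest DST probe set, 215016_x_at, whose suffix marks possible shared sequence, stood at 8.70, 8.75 and 8.67 in treated cells, against 8.78, 8.70 and 8.70 in untreated cells. It overlapped between groups and differed by -0.02 (95% interval -0.18 to 0.14, limma adjusted p = 0.894).

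The probe set annotated with the epithelial DST transcript, 204455_at, was lower with treatment. It stood at 7.37, 7.17 and 7.24 in treated cells, against 7.66, 7.58 and 7.68 in untreated cells. All treated arrays were lower, by -0.38 on average (95% interval -0.58 to -0.18, adjusted p = 0.0549 over all probe sets, limma), which did not pass. When suffixed probe sets were left out, this probe set represented DST and passed (adjusted p = 0.0339 over 16788 genes, limma). Relative to the brightest DST probe set it was -1.33, -1.58 and -1.43 in treated cells, against -1.11, -1.12 and -1.03 in untreated cells. This is a shift of -0.36. The groups could not overlap, given the values of 204455_at and the narrow range of the brightest probe set, so no test is given.

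Among the 10 DST probe sets 2 differed upward and 8 downward, from -0.38 to 0.07, and 0 passed at the probe set level. At an unadjusted p below 0.05, limma counted 3 of the 10, all lower. Over all 19775 genes, with 1 probe set each, it counted 2484 lower and 2100 higher. All treated arrays lay below all untreated ones for 16.3% of all genes. This was so in 4 of the 10 DST probe sets: 204455_at, 212254_s_at at -0.15, 216918_s_at at -0.23 and 1553191_at at -0.23. The 10 belong to 1 gene, so counts over them and shares over all genes are in unlike units. Probe set 1553191_at and 4 more lay below the median of all probe sets, 4.16, where RMA compresses differences. Which DST transcripts the other probe sets report is not settled by the annotation used.

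**Figure D2:**
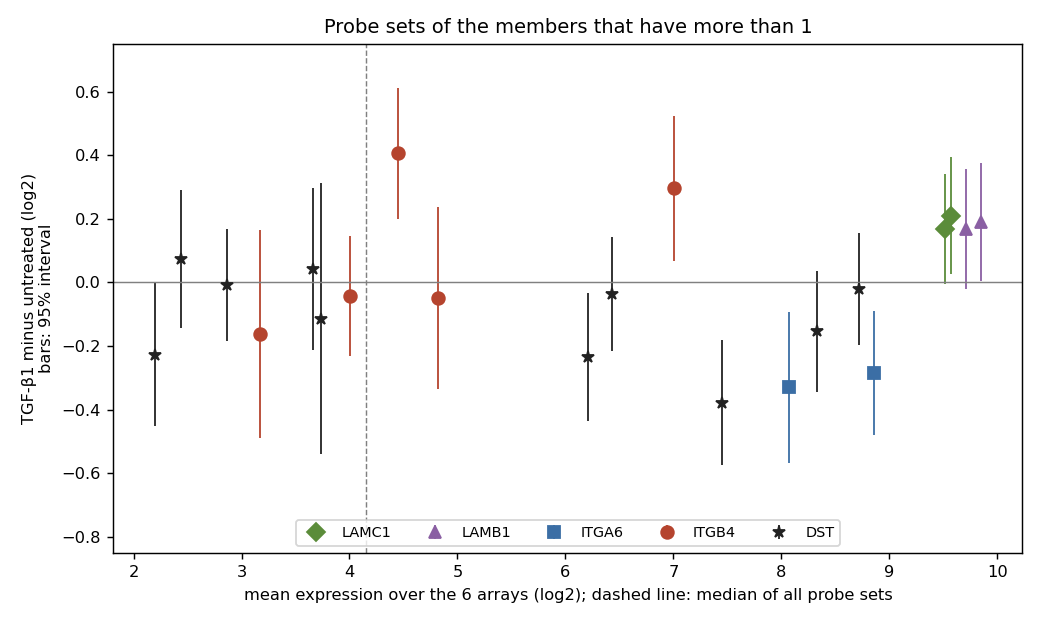
Difference between TGF-β1 and untreated cells (log2, with 95% intervals) against mean expression over the 6 arrays for every probe set of LAMC1, LAMB1, ITGA6, ITGB4 and DST. Probe sets of LAMC1, LAMB1 and ITGA6 lie close to each other, while those of ITGB4 run from -0.16 to 0.41 and those of DST from -0.38 to 0.07.

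**Figure D3:**
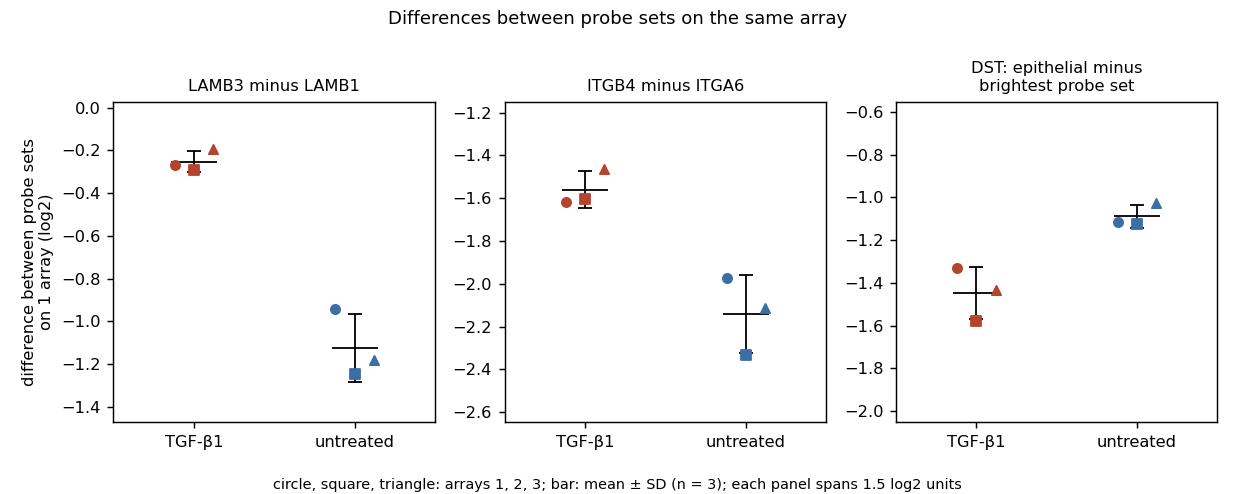
Difference in signal between 2 probe sets of the same array (log2), TGF-β1 left and untreated right in each panel, with the mean ± SD (n = 3) as bars. LAMB3 minus LAMB1 and ITGB4 minus ITGA6 are higher in treated cells and the epithelial minus the brightest DST probe set is lower, with no overlap between the groups.

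Of the 8 members 1 rose, 0 fell and 7 did not pass (limma), beside 8.5% of all genes that passed. At an unadjusted p below 0.05, 5 were higher, LAMB3 included, and 1 was lower, ITGA6. Of all 19775 genes, 2100 were higher and 2484 lower at that level. The groups did not overlap for 6 of the 8 (5 higher and 1 lower), beside 29.2% of all genes. The median difference of the 8 was 0.20, beside -0.0027 over all genes. The number of members that passed was 6 with a trended robust variance, 5 higher (LAMB3, LAMC1, LAMB1, ITGB4 and ITGA3) and 1 lower (ITGA6), in a fit that called 2629 genes, and it was 1 or 2 in the other 15 settings. Of the 8, 5 had their highest untreated value on array 1, and no treated array held the highest value for more than 4.

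The genes whose profile over the 6 arrays lay closest to that of LAMB3, among 13106 genes above the median level, were MARCKSL1 and RFLNB. Their root mean square distances were 0.0421 and 0.0530 (log2, values minus the mean over the 6 arrays), and their own differences were 1.03 and 1.02.

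Several other genes on a list drawn up for the hemidesmosome and its anchorage rose. The list was chosen with earlier results of these data known, and it includes keratins and an integrin activator. Of 7 measured, 5 rose, 0 fell (also 0 at an unadjusted p below 0.05, limma) and 2 did not pass, beside 4.03% of all genes that rose, and the median difference was 0.77. COL7A1, the collagen of anchoring fibrils beneath the basement membrane, stood at 8.09, 7.94 and 7.94 in treated cells, against 7.01, 6.75 and 7.05 in untreated cells, and rose 2.07-fold (limma adjusted p = 6.5e-04). Its second probe set differed by 1.26.

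CD151, a tetraspanin that binds the laminin-binding integrins, stood at 8.20, 8.21 and 8.16 in treated cells, against 7.38, 7.27 and 7.10 in untreated cells, and rose 1.92-fold (limma adjusted p = 5.8e-04). PLEC, which encodes plectin, the link from the β4 tail to keratin, stood at 8.33, 8.38 and 8.13 in treated cells, against 7.58, 7.70 and 7.53 in untreated cells, and rose 1.60-fold (limma adjusted p = 0.00356). For both genes the groups lay well apart, and ITGA6, ITGB4 and the epithelial DST probe set did not pass beside them. FERMT1, which encodes kindlin-1, an integrin activator of keratinocytes, rose 1.78-fold and KRT14, the keratin of basal cells, rose 1.71-fold.

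KRT5, the partner keratin of KRT14, differed by 0.20 (95% interval -0.02 to 0.41), and ERBIN, which binds ITGB4 and BP230, by 0.09 (-0.09 to 0.26), without passing. The 5 rises also passed with each array left out in turn. With both arrays numbered 1 removed there were 4, and PLEC did not pass (limma adjusted p = 0.0626). COL17A1 was not analysed here.

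**Figure D4:**
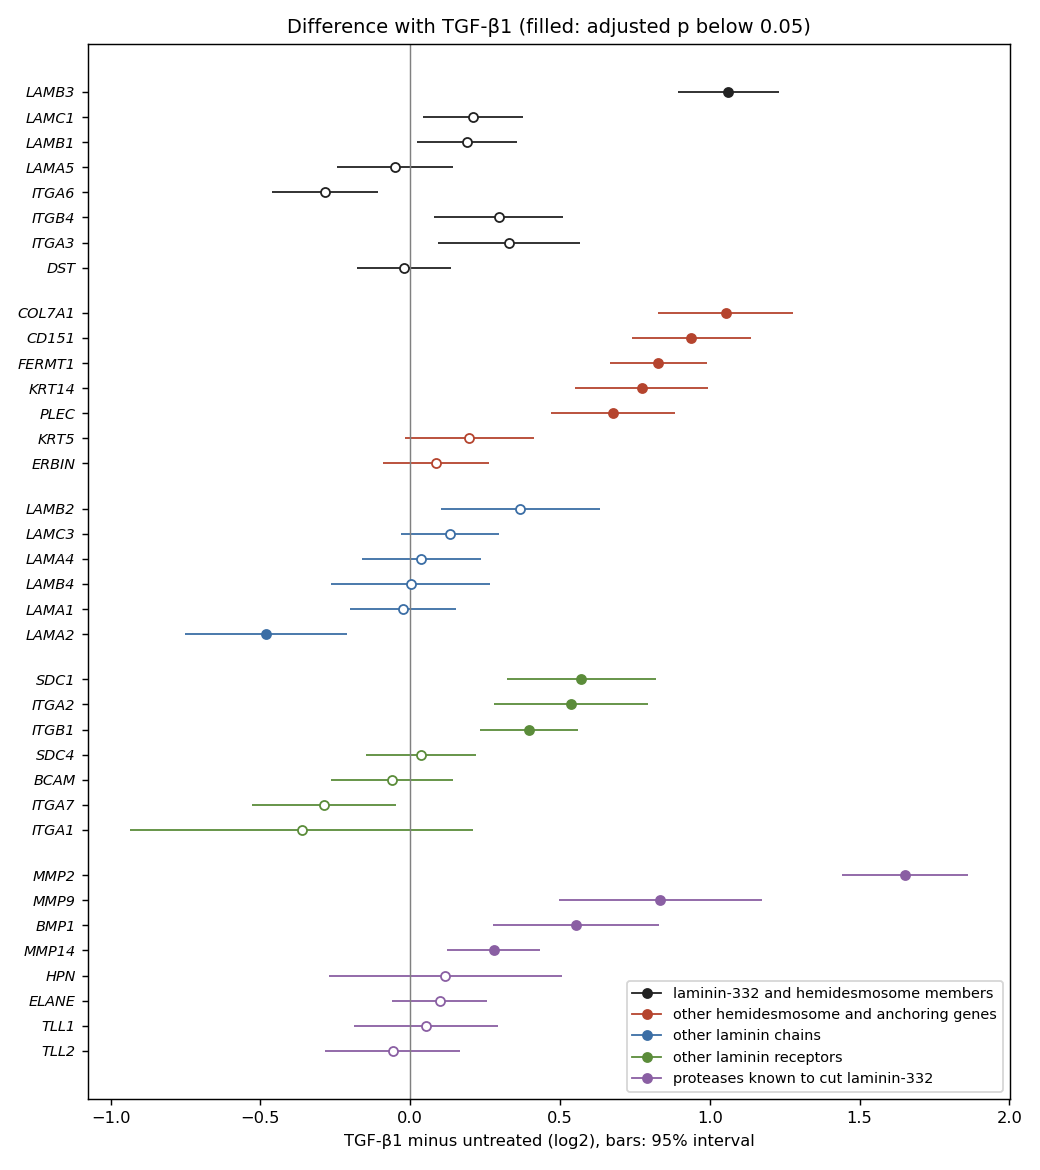
Difference between TGF-β1 and untreated cells (log2, with 95% intervals) for the 8 members and for other hemidesmosome and anchoring genes, laminin chains, laminin receptors and proteases, with filled points where the adjusted p lay below 0.05. LAMB3 is the filled member, and 5 of the 7 other hemidesmosome and anchoring genes are filled on the right.

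Beside 4.03% of all genes that rose and 4.47% that fell, 0 of 6 other laminin chains rose (1 was higher at an unadjusted p below 0.05, limma). LAMA2, the α chain of muscle basement membranes, was the 1 that fell. It stood at 4.48, 4.40 and 4.47 in treated cells, against 5.09, 5.05 and 4.66 in untreated cells, close to the array median, and differed by -0.48 (limma adjusted p = 0.0436). It did not pass when any array but untreated array 3 was left out (limma adjusted p up to 0.140), and its other 3 probe sets differed by -0.03, -0.26 and 0.05. LAMB2, the β2 chain, differed by 0.37, LAMC3 by 0.13, LAMA4 by 0.04, LAMA1 by -0.02 and LAMB4 by 0.0015, without passing. LAMB3 was thus the 1 laminin chain of 10 measured that rose in this fit, although LAMB2 also passed upward when untreated array 1 was left out.

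Among 7 other laminin receptors 3 rose and 0 fell (1 was lower at an unadjusted p below 0.05, limma). Of all genes 4.03% rose, and this list too was chosen with earlier results of these data known. ITGB1, the partner chain of ITGA3, stood at 12.74, 12.64 and 12.61 in treated cells, against 12.30, 12.23 and 12.27 in untreated cells, and rose 1.32-fold (limma adjusted p = 0.0141). SDC1, the syndecan that binds laminin-332, rose 1.49-fold, and ITGA2, the α chain of a collagen and laminin receptor, 1.45-fold. ITGB1 did not pass without untreated array 2 or 3 (limma adjusted p up to 0.0626). SDC1 passed without treated array 1 or untreated array 3, and ITGA2 without treated array 1, but neither passed on removal of another array (up to 0.0666 and 0.0932). The second probe sets of SDC1 and ITGA2 differed by 0.33 and 0.37 without passing over all probe sets. Other ITGB1 probe sets, at 0.43 and 0.58, passed, and the dim ones, from -0.10 to 0.07, did not. The count of rises was 0 without untreated array 2, 3 without treated array 1 and 1 without any other. ITGA7, ITGA1, BCAM and SDC4 differed by -0.29, -0.36, -0.06 and 0.03 without passing.

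Of 18 other basement membrane genes 3 rose and 0 fell (1 was lower at an unadjusted p below 0.05, limma). The share over all genes that rose was 4.03%, and this list was also chosen with earlier results known. COL4A1 and COL4A2, the main collagen chains of basement membranes, differed by 2.29 and 1.70. AGRN, a heparan sulfate proteoglycan that binds laminin, rose 1.34-fold, but did not pass when any array but untreated array 3 was left out (limma adjusted p up to 0.0724). The other AGRN probe sets differed by 0.32, -0.08 and 0.11 without passing. FRAS1 differed by 0.51 without passing, though it passed with a trended robust variance and with a 3' to 5' covariate. The median difference of the 18 was 0.09.

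Of 8 matrix proteases listed for the cutting of laminin-332 chains 4 rose and 0 fell (also 0 at an unadjusted p below 0.05, limma). Beside them 4.03% of all genes rose. The protease list was likewise chosen with earlier results of these data known. MMP2 stood at 6.92, 7.17 and 7.09 in treated cells, against 5.51, 5.31 and 5.41 in untreated cells, with a fold of 3.14. MMP9 rose 1.78-fold, BMP1, a tolloid protease that trims laminin chains, 1.47-fold and MMP14, a membrane-bound metalloprotease, 1.21-fold. HPN, ELANE, TLL1 and TLL2 differed by 0.12, 0.10, 0.05 and -0.06 without passing. MMP9 did not pass without untreated array 2 or 3 (limma adjusted p up to 0.0556), BMP1 without any array but treated array 1 (up to 0.0963) and MMP14 without any of the 6 (up to 0.141). The other 3 MMP14 probe sets, which were dimmer, differed by 0.78, 0.45 and 0.11. Leaving out single arrays gave 1 to 3 rises (1 without untreated array 2 or 3), with MMP2 among them each time, and 2 remained past the threshold when neither array numbered 1 was used.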

How the data were processed

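Expression was measured on 6 Affymetrix 3' arrays of 54675 probe sets, 3 per group. Per the submitters' processing notes, the authors made the deposited log2 values in Affymetrix Expression Console by RMA. This method corrects background, makes array distributions equal and sums up each probe set. No version is given in the sources used here. The range of the values (1.57 to 14.5) showed the log2 scale. No scanner signals were used, so no detection call was available, and the number of arrays limits the precision.

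Probe sets were named through the platform annotation: 41091 had 1 gene symbol, 1801 several, 11721 no name here, and 62 were controls. RefSeq gene numbers changed 0 symbols. The test was limma 3.58.1 (R 4.3.3, lmFit and eBayes) on 1 probe set per gene, with Benjamini-Hochberg adjustment over 19775 genes and a threshold of 0.05. Single probe sets were fitted over all probe sets that are not controls. Differences are TGF-β1 minus untreated. The fit was tested on simulated data with independent noise. These held no effect of array number or RNA quality, so the test does not cover such effects.

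Same-numbered arrays deviated from their group means with correlations of 0.18, 0.04 and 0.08, of which 2 lie below the minimum of 0.1 set for pairing, so no block was used. The members and gene lists were chosen with earlier results of these data known. Named genes were the members, up to 4 genes with the smallest p per list (any gene of a list of 9 or fewer), and the 2 profiles closest to a member that passed. Of the listed genes, DAG1 and RPSA and the markers KRT17, TP63 and CD68 were also not analysed here. Alternatives were repeated quantile normalisation, median centring, a filter on dim probe sets, the mean of probe sets, no suffixed probe sets, a trended robust variance, array weights, a replicate block, each array left out, both arrays numbered 1 left out, a 3' to 5' covariate and other probe sets. The same alternatives for the other gene lists were chosen after seeing the data.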

Additional observations from a re-analysis of the deposited data

How the results depend on the processing

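LAMB3 rose in all 16 settings tried (1.03 to 1.11 on the log2 scale, limma adjusted p at most 0.00699). The number of genes changed was 1680, and 768 to 1326 without single arrays, 627 without both arrays numbered 1, 1004 without suffixed probe sets and 2629 with a trended robust variance. The number of members changed was 1, and 1 to 2 without single arrays. It was 2 with the filter on dim probe sets, with probe sets averaged per gene, without suffixed probe sets and with array weights, and 6 with a trended robust variance. With that variance LAMC1 (0.21), LAMB1 (0.19), ITGB4 (0.30), ITGA3 (0.33) and ITGA6 (-0.28) passed at limma adjusted p = 0.0227, 0.0338, 0.0428, 0.0284 and 0.00858. ITGA6 also passed with the filter (-0.28) and the mean of probe sets (-0.31), and ITGA3 with array weights (0.36). Without single arrays ITGA3 ran from 0.25 to 0.42, ITGA6 from -0.33 to -0.23, ITGB4 from 0.21 to 0.38, LAMC1 from 0.18 to 0.24, LAMB1 from 0.14 to 0.22, LAMA5 from -0.11 to 0.0103 and DST from -0.0407 to 0.0047. DST without suffixed probe sets was -0.38, past the threshold. Signs turned for DST without both arrays numbered 1 (0.0074) and in probe sets 215814_at (0.0727) and 220154_at (0.0425), and for ITGB4 without suffixed probe sets (-0.0432) and in probe sets 211905_s_at (-0.16), 214292_at (-0.0432) and 230704_s_at (-0.0490). The cause was not tested, except that probe sets and the number of arrays differ by construction. With the replicate block 1280 genes and 1 member changed, LAMB3 (limma adjusted p = 0.00294), and no member's call changed. Among the other listed genes FRAS1 passed with the block, and LAMA2 and MMP14 did not.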
